A study of Mus musculus with 3 samples.

Results

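The mature microRNAs (miRNAs) described here are hairpin arms whose name carries the number of the gene copy they come from, as in miR-24-2-5p or let-7a-1-3p. They were taken by name: miR- or let-, a family number below 1000 with optional letters, a copy number, and the arm, 5p or 3p. Of the 1915 mature mouse miRNAs in the tables, 57 had such a name. They belong to 29 families, 19 of them on the 5p and 38 on the 3p arm. In 26 families 2 copies carry a number, in miR-344d 3 copies do, and in miR-669a and miR-669d only 1 does. The data are 3 small RNA libraries of a single group, exosomes shed by bone-marrow-derived macrophages of adult wild type C57BL/6 mice. All 3 share the same culture, 24 h with M-CSF, the growth factor of macrophages, followed by 72 h in medium with exosome-free serum, from which vesicles were pelleted by ultracentrifugation. There is no second condition, so the libraries can only be compared with each other. No label states that they stem from separate animals or cultures. P-values of the tests among libraries therefore measure only how far these libraries differ, possibly for technical reasons. Those of the test between hairpin arms measure the arm difference against its variation among these libraries, which may not be separate animals or cultures.

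A miRNA gene is transcribed as a long primary RNA, from which Drosha and Dicer release a short duplex with a strand from each arm of the hairpin. Usually 1 strand is loaded into Argonaute and the other, the passenger strand, is degraded. Many miRNAs have several gene copies on different chromosomes that give the same strand from 1 arm, here called the common strand, and differ in the other arm. The differing arm then carries the copy number, and its reads can be assigned to a gene, while reads of the common strand cannot. Bases 2 to 8 of a mature miRNA, the seed, pair with target mRNAs, so copies that differ in the seed of the numbered arm differ in what that arm can target.

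The libraries held 3008995, 2489984 and 3208617 counts assigned to miRNAs. Levels are counts per 1000000 of these miRNA counts (CPM), with no scaling by length, since each read is a whole mature strand. A count of 0 allows up to 3 counts, which is 0.997, 1.20 and 0.935 CPM in libraries 1, 2 and 3. Library 1 stood apart. Over 472 miRNAs, Pearson's r of log2(CPM + 1) was 0.91 and 0.89 between library 1 and libraries 2 and 3, and 0.97 between the last pair. Across the 20 numbered arms with at least 30 counts it was 0.86, 0.84 and 0.96. Points here are miRNAs of the same libraries and not independent of each other. All 6 myeloid or haematopoietic markers examined had counts in every library, and together held 7.12%, 34.5% and 30.01% of miRNA counts. Most of this share was miR-21a-5p (37316, 305278 and 261488 CPM) and miR-146a-5p (33401, 35012 and 36543 CPM). The sums therefore say little of the other markers in this list. Far lower was miR-223-3p, with 35.6, 52.6 and 33.0 CPM. Levels of miR-142a-3p were 42.9, 1364 and 819 CPM, those of miR-155-5p 74.8, 2388 and 829 CPM. The 12 markers of liver, erythroid, epithelial, endothelial, muscle, neuronal and stromal cells held 0.0647%, 0.0974% and 0.182%. Of these, 7 had counts in every library and the neuronal miR-124-3p had none in any. The liver miR-122-5p, with 322, 548 and 1500 CPM, was above miR-223-3p in every library. It was below miR-142a-3p and miR-155-5p in library 2 only. In library 1 the stromal miR-199a-3p (223 CPM) was above miR-223-3p, miR-142a-3p and miR-155-5p, and below miR-142a-5p (292 CPM). The part of these differences among libraries in the results below was not tested, and values without library 1 are given where they change a result.

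The sequences below show what tells the gene copies apart. RefSeq (GRCm38.p6) gave a sequence for 52 of the 57 arms, including all 31 with a count. They are written 5′ to 3′ with the seed in capitals. The families shown are those whose numbered arms were most abundant, each with both copies and, for the leading families, the common strand. Of the let-7 common strands only let-7a-5p is shown, and let-7c-5p and let-7f-5p differ from it outside the seed.
miR-24-1-5p: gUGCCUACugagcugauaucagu
miR-24-2-5p: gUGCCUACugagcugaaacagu
miR-24-3p (common): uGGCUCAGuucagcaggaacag
miR-125b-1-3p: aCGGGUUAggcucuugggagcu
miR-125b-2-3p: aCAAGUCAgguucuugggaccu
miR-125b-5p (common): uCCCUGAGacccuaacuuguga
let-7a-1-3p: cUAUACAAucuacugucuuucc
let-7a-2-3p: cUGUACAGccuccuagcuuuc
let-7c-1-3p: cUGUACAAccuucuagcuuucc
let-7c-2-3p: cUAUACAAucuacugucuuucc
let-7f-1-3p: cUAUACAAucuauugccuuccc
let-7f-2-3p: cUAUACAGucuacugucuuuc
let-7a-5p (common): uGAGGUAGuagguuguauaguu
miR-16-1-3p: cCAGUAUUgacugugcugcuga
miR-16-2-3p: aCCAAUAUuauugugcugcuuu
miR-30c-1-3p: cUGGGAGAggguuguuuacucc
miR-30c-2-3p: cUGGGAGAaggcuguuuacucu
miR-365-1-5p: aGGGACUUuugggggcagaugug
miR-365-2-5p: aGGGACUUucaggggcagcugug
miR-7a-1-3p: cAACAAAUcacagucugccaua
miR-7a-2-3p: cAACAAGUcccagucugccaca

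The copies of miR-24, miR-30c and miR-365 keep the same seed and differ by 2, 3 and 3 bases, while those of miR-125b and miR-16 differ by 5 and 6 bases and have different seeds. Of the 26 pairs of copies within a family that could be compared, 8 shared the seed. The 3p sequences of let-7a-1 and let-7c-2 are identical. Their counts were identical in every library as well, so these reads appear under both names and cannot be assigned to either gene. With let-7f-1-3p they share the seed UAUACAA, which miR-98-3p (mean 30.8 CPM) and let-7b-3p (7.25 CPM), arms without a copy number, also have.

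Numbered arms were a small part of the exosomal miRNA, and a pair of them made up most of it. Together the 57 arms held 0.569% of miRNA counts in library 1 (Wilson 95% interval 0.560 to 0.577), 0.264% (0.257 to 0.270) in library 2 and 0.213% (0.208 to 0.218) in library 3. The mean was 0.349% ± 0.193 (SD, n = 3), and 0.238% without library 1. Intervals and the limits set by a count of 0 cover counting error only, since the libraries were amplified by PCR and no molecular identifiers are mentioned. MiR-24-2-5p alone was 55.7%, 71.0% and 64.2% of the numbered counts, and with miR-125b-2-3p 86.2%, 84.5% and 79.5%. A count was seen for 31 of the 57 arms (54.4%, beside 46.3% of all miRNAs in the tables), in all 3 libraries for 21. In 20 arms the summed count reached 30, the minimum for a test, and in 11 it lay between 1 and 29. By family, both copies were seen in 10, a single copy in 11 and none in 8. These numbers count the reads shared by let-7a-1 and let-7c-2 as seen in both families, although they cannot be assigned.

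**Figure D1:**
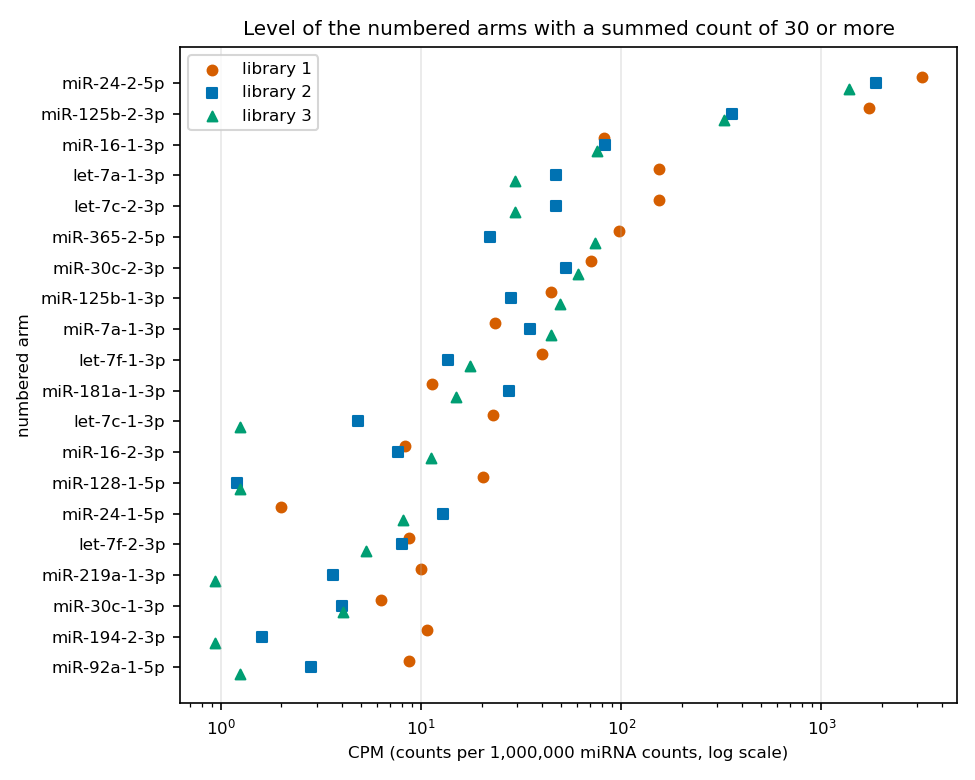
Level of the 20 numbered arms with a summed count of at least 30, in CPM on a log axis, with 1 point for each library. MiR-24-2-5p and miR-125b-2-3p stand above all others in every library, and most arms are highest in library 1.

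Of the 20 tested arms, 14 were highest in library 1 and 3 were lowest there. With TMM or DESeq2 scaling, which moves the ratio of library 1 to library 2 by -0.61 or -0.65 and to library 3 by -0.86 or -0.88 (log2), 10 of 20 were highest in library 1. The 4 that changed were miR-365-2-5p, miR-30c-2-3p, miR-30c-1-3p and let-7f-2-3p. How many of all tested miRNAs were highest in library 1 was not counted, so these counts do not set the numbered arms apart. In the chi-square test of each miRNA's counts against the library totals, 16 of the 20 arms (80.0%) differed among the libraries at an adjusted p under 0.05, against 90.1% of the 353 miRNAs tested. Without library 1 it was 6 of 14, against 61.5% of 288. Those not called were miR-16-1-3p, miR-16-2-3p, let-7f-2-3p and miR-30c-1-3p, with adjusted p of 0.54, 0.32, 0.27 and 0.36. With TMM factors both miR-16 arms were called and lower in library 1, at adjusted p of 7.6e-09 and 0.0018. Some calls rested on 1 library. Without library 1 the adjusted p was 0.085 for miR-125b-2-3p, 0.32 for let-7f-1-3p, 0.11 for miR-24-1-5p, 0.12 for miR-7a-1-3p and 0.30 for miR-30c-2-3p. Without library 2 it was 0.41 for miR-125b-1-3p, 0.23 for miR-181a-1-3p and 0.14 for miR-30c-2-3p.

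The most abundant numbered arm was miR-24-2-5p, the passenger strand of a gene in the miR-23a, miR-27a and miR-24-2 cluster. It had 9532, 4663 and 4384 counts, or 3168, 1873 and 1366 CPM, in libraries 1, 2 and 3. The mean was 2136 ± 929 CPM (SD, n = 3), which placed it 44 among all 1915 miRNAs and first among the lower arms of all hairpin families. It lies at chr8:84208839-84208860 (plus strand), with no host gene in GENCODE M21 (GRCm38, as all positions here). The arm of the other copy, miR-24-1-5p at chr13:63301213-63301235 (plus strand), overlaps an exon of 2010111I01Rik. It had only 6, 32 and 26 counts, or 1.99, 12.9 and 8.10 CPM, and was lowest in the library where miR-24-2-5p was highest. Copy 2 thus took 99.9%, 99.3% and 99.4% of the numbered miR-24 counts. Over the summed counts it was 290-fold above copy 1 (exact 95% interval 227 to 377), and 1589-, 146- and 169-fold by library, and the largest of these rests on the 6 copy 1 counts of library 1, without which the ratio was 156. Both arms start with the same 16 bases.

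MiR-125b-2-3p, partner of miR-125b-5p, a miRNA known from haematopoietic and macrophage biology, came second. It had 5215, 887 and 1048 counts, or 1733, 356 and 327 CPM. The mean of 805 ± 804 CPM (SD, n = 3) rested on library 1, and was 341 CPM without it. The arm lies at chr16:77646318-77646339 (plus strand), in an intron of the noncoding Mir99ahg. MiR-125b-1-3p, at chr9:41581980-41582001 (plus strand), in an intron of 3110039I08Rik, had 134, 70 and 158 counts, or 44.5, 28.1 and 49.2 CPM. Its levels lay closer together than those of copy 2. The share of copy 2 was 97.5% (Wilson 97.0 to 97.9), 92.7% (90.9 to 94.2) and 86.9% (84.9 to 88.7), with intervals that do not overlap. The ratio of copy 2 to copy 1 was 38.9, 12.7 and 6.63 by library, 8.49 without library 1 and 29.9 without library 3.

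The let-7 family represses growth and cell-cycle genes, and its numbered arms are all passenger strands on 3p. The 3p sequence that let-7a-1 shares with let-7c-2 had 466, 118 and 94 counts, or 155, 47.4 and 29.3 CPM. Its mean of 77.2 ± 67.9 CPM (SD, n = 3) was 38.3 CPM without library 1. The genes lie at chr13:48538188-48538209 (minus strand), in an exon of 6720427I07Rik (let-7a-1), and at chr15:85706664-85706685 (plus strand), in an exon of Lncppara (let-7c-2). The other copies were low or not seen. Let-7a-2-3p had no count, which puts the shared sequence at least 226-fold above it (3 counts over the group), or at least 70.7-fold without library 1. Let-7c-1-3p, at chr16:77599717-77599738 (plus strand), in the same Mir99ahg intron host as miR-125b-2, had 69, 12 and 4 counts. Its 22.9, 4.82 and 1.25 CPM average 9.67, and 3.03 without library 1. If all shared reads were credited to let-7c-2, they would be 87.1%, 90.8% and 95.9% of the numbered let-7c counts. These shares are therefore upper values, and which let-7c copy led was not determined.

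Let-7f had the most even copies of the families with at least 30 numbered counts. Let-7f-1-3p, at chr13:48537833-48537854 (minus strand), in the same noncoding RNA as let-7a-1, had 120, 34 and 56 counts, or 39.9, 13.7 and 17.5 CPM. Let-7f-2-3p, at chrX:151912403-151912423 (plus strand), in an intron of Huwe1, had 26, 20 and 17 counts, or 8.64, 8.03 and 5.30 CPM. Copy 1 led in every library, with 82.2% (Wilson 75.2 to 87.5), 63.0% (49.6 to 74.6) and 76.7% (65.8 to 84.9) of the numbered counts. In library 2 the interval reaches an even split.

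In CPM, miR-16-1-3p and miR-30c-2-3p had the smallest spread, relative to the mean, of the arms with a mean above 50 CPM. With TMM factors both differed among libraries in the chi-square test, at adjusted p of 7.6e-09 and 4.2e-05. MiR-16 is known for targeting cell-cycle and Bcl2 mRNAs. Its copy 1 arm had 246, 207 and 242 counts, or 81.8, 83.1 and 75.4 CPM, a mean of 80.1 ± 4.11 (SD, n = 3). It lies at chr14:61631894-61631915 (minus strand), in an intron of the noncoding Dleu2. Copy 2, miR-16-2-3p at chr3:69009960-69009981 (plus strand), in an intron of Smc4, had 25, 19 and 36 counts, or 8.31, 7.63 and 11.2 CPM. Copy 1 took 90.8%, 91.6% and 87.1%, an 8.69-fold lead (exact 95% interval 6.88 to 11.1), and 9.84-, 10.9- and 6.72-fold by library. For miR-30c the lead was with copy 2. MiR-30c-2-3p, at chr1:23291754-23291775 (plus strand), in an exon of Gm27028, had 212, 132 and 194 counts, or 70.5, 53.0 and 60.5 CPM. MiR-30c-1-3p, at chr4:120769546-120769567 (minus strand), in an intron of Nfyc, had 19, 10 and 13 counts, or 6.31, 4.02 and 4.05 CPM. Copy 2 took 91.8%, 93.0% and 93.7%, a 12.8-fold lead (9.35 to 18.0).

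In 7 further families a single copy gave nearly all or all of the numbered counts. MiR-365-2-5p, at chr11:79726428-79726450 (plus strand), with no annotated host, had 292, 55 and 238 counts, or 97.0, 22.1 and 74.2 CPM, with library 2 the low one. MiR-365-1-5p had 0, 2 and 2 counts, a ratio of 146 (exact 95% interval 56.8 to 539), 73.3 without library 1 and 265 without library 2. MiR-7a-1-3p, in an intron of Hnrnpk at chr13:58392800-58392821 (minus strand), had 70, 87 and 142 counts, or 23.3, 34.9 and 44.3 CPM. It was among the few arms lowest in library 1, and with no count for miR-7a-2-3p, set at 3 counts, it was at least 99.7-fold higher, or at least 52.3-fold without library 3. The exact lower 95% limit of this ratio over all libraries was 80.6. MiR-181a-1-3p, of a family that tunes lymphocyte receptor signalling, had 34, 68 and 48 counts, or 11.3, 27.3 and 15.0 CPM. MiR-181a-2-3p had 2 counts, both in library 3, a ratio of 75.0 (20.4 to 625), 41.0 without library 2 and at least 34.0 without library 3, where no copy 2 count is left.

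The remaining 4 were seen mainly in library 1. MiR-128-1-5p, in an intron of R3hdm1, had 61, 3 and 4 counts, averaging 7.57 CPM, or 1.23 if library 1 is left out. MiR-194-2-3p had 32, 4 and 3 counts, miR-219a-1-3p 30, 9 and 3, and miR-92a-1-5p, of the miR-17 to miR-92 cluster, 26, 7 and 4. For these 4 families the other copy had no count, which puts them at least 22.7-, 13.0-, 14.0- and 12.3-fold above it, and without library 1 at least 2.33-, 2.33-, 4.00- and 3.67-fold. Their shares in libraries 2 and 3 rest on 3 to 9 counts each, which the wide intervals in the plot of copy shares show. In miR-29b, below the minimum of 30, miR-29b-1-5p had 17, 1 and 0 counts against 0, 2 and 1 for miR-29b-2-5p, so copy 1 led in library 1 only.

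**Figure D2:**
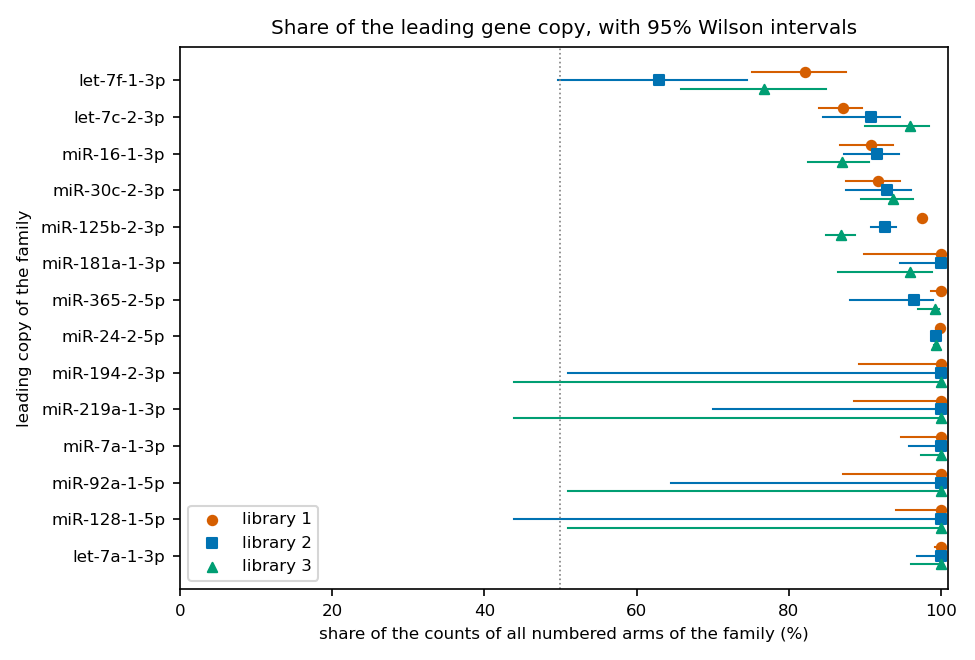
Share of the leading gene copy in the counts of all numbered arms of its family, for the 14 families with at least 30 numbered counts; points are libraries, bars Wilson 95% intervals and the dotted line an even split. The let-7a and let-7c points credit the same shared reads to both families. In each of the 12 others the same copy leads in every library, and let-7f-1-3p has the lowest share in libraries 1 to 3.

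Of the 14 families with 2 numbered arms and at least 30 numbered counts, let-7a and let-7c share reads that cannot be assigned. In each of the 12 others the same copy led in all 3 libraries, copy 1 in 7 and copy 2 in 5. This is a description with no test. Among the arms with fewer counts, miR-103-2-5p, in an intron of Pank2, had 8, 5 and 9 counts and differs from the unseen miR-103-1-5p by 1 base. MiR-19b-1-5p had 1, 0 and 9 counts, miR-26a-2-3p 6, 1 and 0, and miR-181b-1-3p 2, 1 and 0. MiR-138-2-3p, miR-181b-2-3p and miR-344d-3-5p had 1 count each. In the 8 families without any numbered count the common strand was low as well, with the exception of miR-450a. Its common strand miR-450a-5p had 39, 142 and 83 counts. The common strands miR-196a-5p had 0, 12 and 28 and miR-129-5p 4, 8 and 25 counts, and those of miR-1a, miR-135a, miR-218, miR-669a and miR-669d had at most 3 in any library.

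Against the common strand of the same hairpins, numbered arms were nearly always the lower strand. The summed numbered copies were tested against the common strand with edgeR's quasi-likelihood test, with library as a term, together with all hairpin families whose arms summed to at least 60 counts. In 17 of 19 copy-numbered families (89.5%) the numbered arm was lower and in none higher, where 81.2% of all 176 families had a difference in either direction. By arm, 11 of 12 families numbered on 3p had the 5p strand higher, as did 43.2% of all families, and 6 of 7 numbered on 5p had the 3p strand higher, as did 38.1%. The numbered arm held under 5% of both arms' counts in 14 of 19 families and under 1% in 11. The median share of the lower arm was 0.648% (quartiles 0.0748 to 4.00) in copy-numbered families and 1.27% (0.0566 to 12.9) in the 157 others, which is a description. The lower arm held over 10% in 2 of 19 against 45 of 157.

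The largest fitted differences were in miR-26a and miR-92a. MiR-92a-3p had 125155, 17675 and 47067 counts, against 26, 7 and 4 of miR-92a-1-5p, a log2 difference of -12.30 ± 1.25 (SE, adjusted p = 7.1e-19). MiR-26a was at -12.37 ± 1.38 (adjusted p = 2.0e-16), -14.74 without library 1, -11.72 without library 2 and -11.04 without library 3. MiR-19b and miR-181b were at -10.74 ± 1.35 and -10.47 ± 1.39 (adjusted p = 1.6e-13 and 2.3e-12), miR-19b at -9.68 without library 2 and -12.60 without library 3, and miR-7a at -9.91 ± 1.13 (adjusted p = 6.8e-16). The let-7f arm was at -10.27 ± 1.22 (adjusted p = 7.8e-15), and between -9.04 and -11.61 leaving out each library. All of these stayed past the threshold in each case. MiR-24-3p had 188008, 40019 and 39757 counts, so that even the abundant miR-24-2-5p was the lower strand, at -3.52 ± 0.85 (adjusted p = 7.8e-05). MiR-30c and miR-16 followed at -3.96 ± 1.01 and -5.25 ± 0.98 (adjusted p = 1.7e-04 and 4.2e-07). No count was seen for either miR-450a numbered arm, which puts the common strand at least 88.0-fold higher (3 counts over the group).

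In miR-125b and miR-365 the arms were nearer to each other in level than in the other tested families. Both miR-365 arms were low, with a mean of 47.6 CPM for miR-365-3p and 64.4 CPM for miR-365-2-5p. MiR-125b-5p had 6298, 4528 and 2582 counts, and the numbered arms held 45.9% (Wilson 45.0 to 46.8), 17.4% (16.5 to 18.5) and 31.8% (30.4 to 33.3) of both. The log2 difference of -1.19 ± 0.88 did not pass the test (adjusted p = 0.20), but without library 1 it was -1.67 with an adjusted p of 0.029. MiR-365-3p had 246, 89 and 81 counts, and the numbered arm held 54.3% (50.1 to 58.4), 39.0% (31.5 to 47.1) and 74.8% (69.7 to 79.2). It was above the common strand in libraries 1 and 3 and below it in library 2. The log2 difference of 0.39 ± 0.98 did not pass (adjusted p = 0.72) and was -0.19 without library 3. MiR-219a, with 46 counts in all and so not tested, had 42 on the numbered arm and 4 on miR-219a-5p. In 3 families a call was lost with 2 libraries left while the numbered arm stayed far lower. Without library 2 the log2 difference was -3.82 for miR-194 (adjusted p = 0.12, -4.71 in all libraries), -5.13 for miR-29b (0.087, -6.06) and -3.38 for miR-30c (0.058, -3.96). Without library 3 it was -3.78 for miR-29b (0.085). Without library 1 all 3 were called, at -6.09, -8.27 and -4.66.

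**Figure D3:**
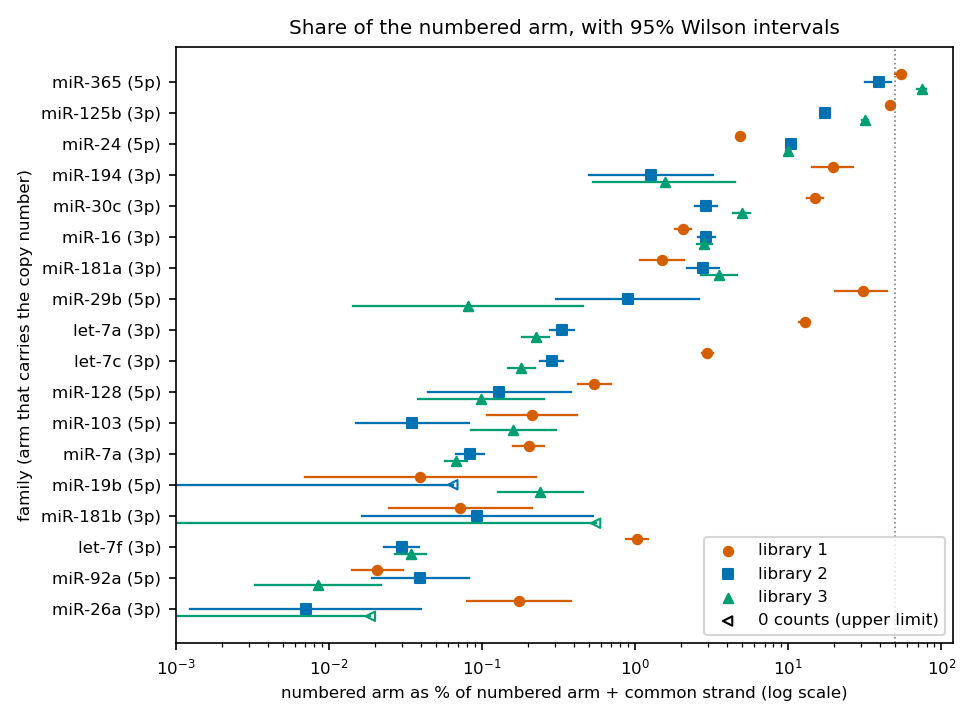
Numbered arm as a percentage of numbered arm plus common strand, on a log axis, for 18 tested families (miR-450a, with no numbered count, is left out); points are libraries, bars Wilson 95% intervals, open triangles upper limits of a count of 0 and the dotted line an even split. MiR-365 and miR-125b lie nearest the even split, and let-7a, let-7c, let-7f and miR-29b are far higher in library 1 than in the others.

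The split between arms was not the same in the 3 libraries. A chi-square test of arm by library (Fisher's exact test where an expected count was under 5) called 17 of 19 copy-numbered families (89.5%), against 61.9% of all 176. MiR-181b and miR-450a were not called. A family with no count on 1 arm could not be called by this test. That held for miR-450a, 1 of the 19, and for 24 of the 157 other families. Part of the gap between the shares called is therefore built in. Without library 1, the test called 9 of 19, against 33.5% of 161. Among the 17, the numbered share was higher in library 1 than in both others in 11 and lower in 3. Over all 109 families called, the lower arm's share was higher in library 1 in 51 and lower in 45.

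The let-7 families are given first, since their common strands are among the abundant ones. Numbered arms of let-7a were 12.8% (Wilson 11.8 to 13.9), 0.335% (0.280 to 0.401) and 0.225% (0.184 to 0.275) of both arms in libraries 1, 2 and 3. For let-7a the common strand moved the other way, with 3170, 35140 and 41717 counts of let-7a-5p. Because the let-7a-1 and let-7c-2 arms share their reads, the families were also merged with those reads entered a single time. The merged share was 2.52% (2.32 to 2.74), 0.161% (0.136 to 0.191) and 0.102% (0.0839 to 0.125), still highest in library 1. Let-7f stood at 1.03%, 0.0299% and 0.0342%, with 14072, 180450 and 213470 counts of let-7f-5p. Shares of miR-30c (14.9%, 2.92% and 4.96%), miR-194 (19.6%, 1.28% and 1.56%) and miR-29b (30.9%, 0.896% and 0.0811%) were also highest in library 1. For miR-29b this rests on 55 counts of both arms there, 17 and 38.

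MiR-24 went the other way. Its numbered arms held 4.83% (Wilson 4.73 to 4.92), 10.5% (10.2 to 10.8) and 9.98% (9.71 to 10.3). Both strands were highest in library 1, miR-24-3p more so, at 62482, 16072 and 12391 CPM. MiR-16 (2.05%, 2.91% and 2.83%) and miR-181a (1.51%, 2.78% and 3.56%) were also lowest in library 1. Several families lost their call when a library was left out, which leaves a single pair to compare. Without library 1 the adjusted p was 0.68 for let-7f, 0.96 for miR-128, 1.0 for miR-16 and miR-194, 0.34 for miR-181a, 0.65 for miR-26a, 0.089 for miR-29b (shares of 0.896% and 0.0811%) and 0.28 for miR-7a. Without library 2 it was 0.78 for miR-103, 0.098 for miR-19b and 0.14 for miR-92a, and without library 3 it was 0.44 for miR-19b and 0.29 for miR-92a.

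Several gene copies share a primary transcript with other miRNAs, whose levels were set beside those of the numbered arms, with no test. For some families both gave the same order of copies. MiR-99a-5p, the neighbour of miR-125b-2 and let-7c-1, was at 171777, 68716 and 50770 CPM and miR-100-5p, the neighbour of miR-125b-1 and let-7a-2, at 939, 468 and 362 CPM. MiR-30a-5p, beside miR-30c-2, was at 26474, 14718 and 6900 CPM and miR-30e-5p, beside miR-30c-1, at 3661, 1829 and 732 CPM. The miR-194-2 neighbour miR-192-5p was at 1067, 480 and 469 CPM and the miR-194-1 neighbour miR-215-5p at 12.6, 2.01 and 2.18 CPM. In these 3 families the copy with the higher numbered arm also had the higher neighbour in every library.

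The same order was seen in 2 further sets, with fewer counts. MiR-193a-5p, the neighbour of miR-365-2, was at 58.5, 19.7 and 15.9 CPM, while miR-193b-3p, beside miR-365-1, was seen in library 1 only, with 1.33 CPM. Of the neighbours of miR-92a-1 and miR-19b-1, miR-17-5p was at 6178, 2946 and 1071, miR-20a-5p at 15105, 7258 and 2977, miR-19a-3p at 307, 479 and 204 and miR-18a-5p at 111, 109 and 52.4 CPM. On the X-linked transcript of miR-92a-2 and miR-19b-2, miR-20b-5p was at 41.9, 18.9 and 6.23 and miR-106a-5p at 14.0, 6.02 and 1.25 CPM, miR-363-3p stayed under 1 CPM and miR-18b-5p had no count. The numbered arms were seen only for the first of these transcripts.

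For miR-24 and miR-16 a neighbour had the opposite order. For let-7 the comparison depended on the arm of let-7d or on reads that cannot be assigned. MiR-27b-3p, beside miR-24-1, was at 60242, 28503 and 23602 CPM, above miR-27a-3p, beside miR-24-2, at 27905, 14591 and 10194 CPM, although the miR-24-2 arm was 290-fold above the miR-24-1 arm. The other neighbours did follow the numbered arms, with miR-23a-3p at 36140, 4729 and 3221 CPM and miR-23b-3p at 576, 1072 and 536 CPM. MiR-15b-5p, beside miR-16-2, was at 252, 495 and 331 CPM, above miR-15a-5p, beside miR-16-1, at 44.9, 30.9 and 15.0 CPM, while the miR-16-1 arm was 8.69-fold above the miR-16-2 arm. In let-7c, miR-99a-5p beside let-7c-1 was far above let-7b-5p beside let-7c-2, at 2530, 3493 and 3469 CPM. Let-7c-1-3p was below the reads shared by let-7a-1 and let-7c-2. Which let-7c copy led was not determined, so the orders cannot be compared there. In let-7a and let-7f the order of the neighbours depended on the let-7d arm and on the library. Let-7d lies beside let-7a-1 and let-7f-1, miR-100 beside let-7a-2 and miR-98 beside let-7f-2. Let-7d-5p, at 241, 3347 and 2910 CPM, was below miR-100-5p (939 CPM) and miR-98-5p (293 CPM) in library 1 and above them in libraries 2 and 3. Let-7d-3p, at 1946, 404 and 300 CPM, was above both in library 1 and below both in libraries 2 and 3. The higher let-7d arm of each library was thus above both neighbours. These are levels of different sequences, and how evenly each was captured was not tested.

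**Figure D4:**
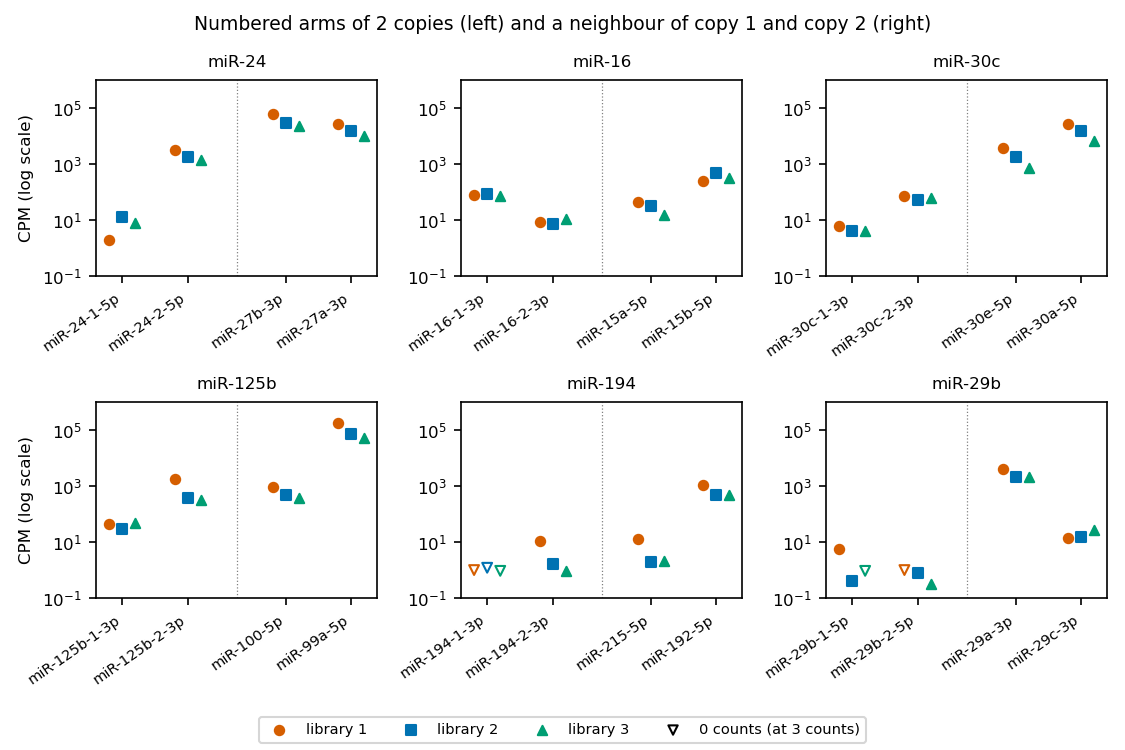
CPM (log axis) of the numbered arms of copies 1 and 2 (left of each dotted line) and of a neighbour of copy 1 and of copy 2 on the same primary transcripts (right), in 6 families, with 1 point for each library and open triangles at 3 counts where the count is 0. For miR-30c, miR-125b and miR-194 the higher copy has the higher neighbour, and for miR-24 and miR-16 the shown neighbours have the opposite order.

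Other neighbours complete the list. The arms of let-7d differed in which library was high. Let-7d-5p was low in library 1, where let-7f-1-3p and the reads shared by let-7a-1 and let-7c-2 were high. Let-7d-3p, at 1946, 404 and 300 CPM, was highest there, as were let-7f-1-3p and the shared reads. MiR-98-5p, beside let-7f-2, was at 293, 1158 and 1001 CPM. MiR-29a-3p, beside miR-29b-1, was at 3923, 2108 and 2002 CPM and miR-29c-3p, beside miR-29b-2, at 14.0, 14.5 and 25.9 CPM. The unseen miR-450a arms lie beside miR-322-3p (189, 43.0 and 14.6 CPM), miR-503-3p (41.5, 7.23 and 3.43 CPM) and miR-542-3p (229, 157 and 63.3 CPM). MiR-133a-3p, beside miR-1a-1, was at 2.33, 0 and 0.623 CPM.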

How the data were processed

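The values of each library are whole-number counts per mature miRNA, as the authors deposited them, beside a normalized value in RPM. Per the submitters' processing notes, bcl2fastq and BWA were used with build mm10; versions, trimming, annotation release and the handling of reads matching several miRNAs are not given in the sources used here. The authors' RPM divides by 14047692, 13995845 and 14002577 reads, of which miRNA counts are 21.4%, 17.8% and 22.9%, so CPM of the miRNA counts was used.

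Groups came from the labels. Arms were matched by name, and the numbered copies of a family were summed against the unnumbered strand. Tests ran on the whole table with Benjamini-Hochberg adjustment, a threshold of 0.05 and minimum summed counts of 30 (chi-square) and 60 (arms), using edgeR 4.0.16 in R 4.3.3 and SciPy 1.17.1. DESeq2 1.42.0 served as an alternative. Shares carry Wilson 95% intervals and ratios exact ones. Ratios given as at least a value set a count of 0 at 3 counts and leave out the counting error of the other count. On simulated counts of 353 miRNAs, the chi-square test recovered 67.5% of 200 miRNAs changed 1.5-fold in library 1 and called 1 of 153 unchanged. That simulation held counting error only, so it does not give the rate of such calls where libraries vary more. The arm test, on the 171 families simulated, recovered 3.33%, 31.0% and 96.6% of 2-, 4- and 16-fold differences and called 0 of 83 unchanged. The arm split test recovered 77.3% of 88 families with 4-fold odds in library 1, of 176 simulated, and called 2 of 88 unchanged. It has no term for variation among libraries beyond counting error, so the 2 of 88 need not hold where libraries vary more.

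Named are arms with at least 30 counts, every numbered arm of families with a count, and listed neighbours. The members, lists and tests were chosen with earlier results of these data known. Host genes are from GENCODE M21 and sequences from RefSeq.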

Additional observations from a re-analysis of the deposited data

How the results depend on the processing

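The count of arms that differed among libraries was 18 with TMM factors, with DESeq2 size factors and with no filter (of 20, 20 and 31 tested), and 6 to 16 leaving out each library in turn, with 6 without library 1. Over all miRNAs tested, the shares called were 89.5%, 89.0% and 41.8% in the first 3 settings. They were 61.5%, 86.9% and 87.5% without libraries 1, 2 and 3. The numbered arm was lower in 17 of 19 families with TMM factors and with DESeq2's Wald test and in 14 to 18 leaving out each library. Over all families, a difference in either direction was called in 81.2% and 83.0% in the first 2 settings. It was called in 87.0%, 65.9% and 70.6% without libraries 1, 2 and 3. With no filter 20 of 26 families were called, 19 with the numbered arm lower and miR-219a with it higher, against 38.1% of all 499 families. The arm split was called in 16 of 22 families at a minimum of 30 counts and in 9 to 15 leaving out each library, with 9 without library 1. Over all families it was called in 52.8% of 214 at that minimum, and in 33.5%, 52.9% and 51.2% without libraries 1, 2 and 3. Merging let-7a and let-7c, an alternative chosen after seeing the data, as was the scaling of the library 1 ranks, gave 16 of 18 in both arm tests. Over all 175 families the shares called were then 81.1% in the arm test and 61.7% in the arm split test. The numbered arms' share was 0.341% with identical rows entered a single time, 0.0725% of the reads behind the authors' RPM, whose denominator is larger by construction, and 0.238% to 0.416% leaving out each library. The sign of the miR-365 arm difference turned without library 3 (log2 -0.19, adjusted p = 0.92, in a range of -0.19 to 0.90 leaving out each library), and the cause was not tested. Without library 1 the miR-24 arm share was 10.2% in place of 6.51%, and the miR-125b-2 copy share 89.5% in place of 95.2%. No paired analysis was possible because there is a single group. Families under 60 counts were below the minimum of both arm tests, so depth limits what can be said of them.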
